A study of Danio rerio with 4 samples.

Results

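The genes followed here serve light detection in the pineal organ and the retina. They were taken by name from a list of 10 symbols: exorh, aanat2, rho, opn1sw1, opn1sw2, opn1lw1, gnat1, gnat2, rpe65a and otx5. Expression was measured in brains of adult zebrafish held at 10°C for 10 days (cold) and of adult zebrafish kept at 28°C (normal), with both sexes equally represented, and the cold group was cooled gradually before the 10 days. RNA was pooled from several brains and hybridized to Affymetrix Zebrafish Genome Arrays, with 2 arrays per condition, called cold 1, cold 2, normal 1 and normal 2 by their labels. The sources used here give neither the number of brains in a pool, nor the hour of dissection, nor whether the pineal organ or pieces of eye stayed with the brain.

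In the platform annotation, 9 of the 10 genes were paired with at least 1 probe set, and gnat1, gnat2 and rpe65a with more than 1 each, which made 12 probe sets out of 15502. No probe set was paired with rho, the opsin of rods, so rho is absent from every count below. All 12 probe sets were kept in view, but 3 passed the filter on low signal, which left out the dimmest 40% of probe sets by mean log2 signal (below a signal of 74.5) and kept 9301. These were the probe set of exorh, that of opn1sw2 and the brighter one of rpe65a. The other 9 lay under the filter and were read from a fit of all 15502 probe sets.

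Zebrafish sense light in the retina and also in the pineal organ, a light-sensitive outgrowth of the roof of the forebrain that makes melatonin at night. In photoreceptors, an opsin that has caught light activates the G protein transducin, which switches on a phosphodiesterase that breaks down cyclic GMP and so closes cation channels. Rods and each class of cone carry their own opsin, and rods and cones use different transducin subunits. Opsins need a vitamin A derivative as their light-catching part, which the visual cycle regenerates. Exo-rhodopsin, the product of exorh, takes the place of rod opsin in the pineal organ of fish, and aanat2 encodes the enzyme that sets the rhythm of melatonin synthesis there.

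Most of these probe sets had low signals on every array. The median signal of all probe sets was 101 on cold 1, 99.0 on cold 2, 96.3 on normal 1 and 102 on normal 2, and 11, 11, 11 and 9 of the 12 probe sets lay under it on these arrays. On all 4 arrays opn1sw2 was above this median, and on normal 2 exorh and the brighter probe set of rpe65a were too. As a further scale, 23 control probe sets on the array carry bacterial trp, tag sequences or fluorescent proteins, for which the sources name no spiked RNA. Their signals spanned 14.9 to 129 on cold 1, 19.7 to 165 on cold 2, 18.9 to 151 on normal 1 and 19.2 to 176 on normal 2. On all 4 arrays, 11 of the 12 probe sets were at or under the highest of these controls, and opn1sw2 was above it on cold 1, cold 2 and normal 2 but not on normal 1. No probe set was above it on all 4 arrays. The median of all probe sets also lay under this highest control on every array. The share of all probe sets at or under it was not computed, so the 11 of the 12 is not read as a result about these genes. The median of the 23 controls was exceeded by 9 of the 12 on cold 1, 7 on cold 2, 8 on normal 1 and 10 on normal 2. Detection calls, which would say whether a signal stood above its own mismatch probes, were not used here, so a low signal is not read as expression or as its absence.

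**Figure D1:**
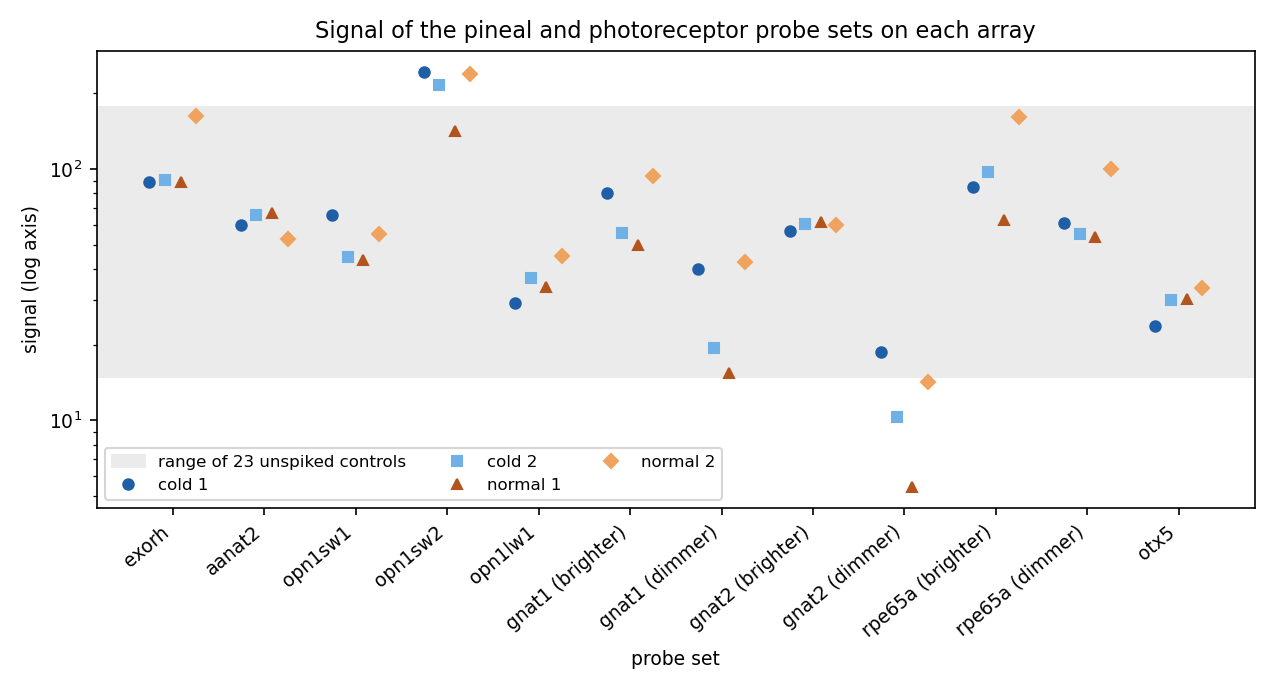
Signal (log axis) of each of the 12 probe sets on cold 1, cold 2, normal 1 and normal 2, with the range over the 4 arrays of the 23 unspiked control probe sets shaded. The points of opn1sw2 on cold 1, cold 2 and normal 2 lie above the shaded range, and exorh and both probe sets of rpe65a have their highest point on normal 2.

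The labelled tissue was checked against markers. All 15 measured genes of neurons and glia, such as mbpa of myelin and snap25a of synaptic vesicle fusion, were above the array median on all 4 arrays, with a median over genes of the mean signal of 3146. Of 12 measured lens genes, 12 were under the array median on all 4 arrays, and the brightest, crygm4, had signals of 72.4 on cold 1, 93.8 on cold 2, 70.7 on normal 1 and 83.8 on normal 2. Of 6 measured genes of melanin-forming cells, 5 were under the array median on all 4 arrays. Among these, tyr, which encodes tyrosinase, had signals of 24.2 and 33.7 in cold brains, against 34.4 and 29.8 in normal brains. The exception, rab32a, had 63.3 on cold 1 and 80.0 on cold 2, against 164 on normal 1 and 44.7 on normal 2. On normal 1 it was above the highest unspiked control. Not every photoreceptor gene was dim: the cone phosphodiesterase subunit gene pde6ha, described below, was above the highest unspiked control on all 4 arrays. This held for the brighter of the 2 probe sets of pde6ha, and the other was not read. The related gene pde6hb was above that control on normal 2, and the retinol carrier gene rbp4l on cold 1 and normal 2. Of 11 measured genes of the inner retina, many of which act in the brain as well, 4 passed the filter. With limma, 0 genes were called in any of these lists or among red blood cell markers. As 0 of all 15502 probe sets were called, this is not read as a result about the lists. In bulk RNA, fewer cells of a type and less RNA per cell cannot be told apart.

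**Figure D2:**
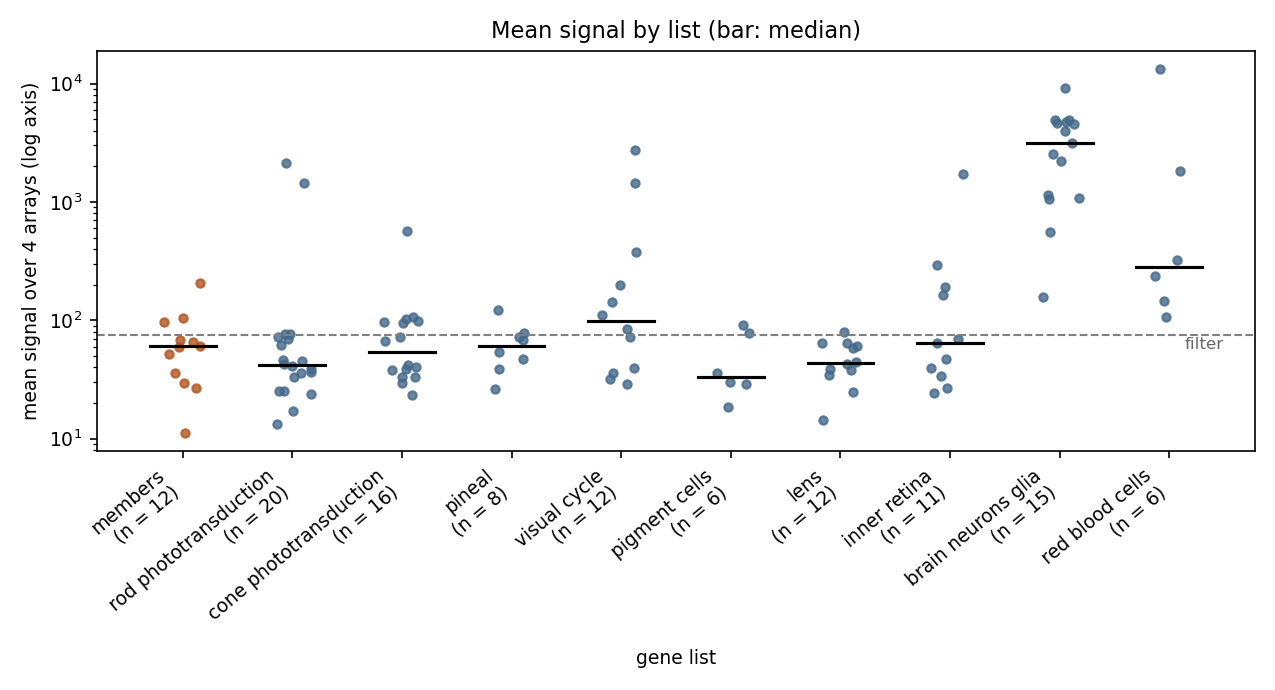
Mean signal over the 4 arrays (log axis) of the 12 probe sets of the listed genes and of the genes of 9 marker lists, each gene at its brightest probe set, with a bar at the median of each list and a dashed line at the filter. Neuronal and glial markers have a median of 3146, against 43.7 for the lens list and 42.0 for the rod list.

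The arrays were compared with each other before the conditions. Over the 9301 kept probe sets the median absolute log2 difference was 0.37 between the 2 cold arrays and 0.41 between the 2 normal arrays, and the smallest was 0.25, between cold 1 and normal 2. Control RNAs added during preparation followed the numbers: all 18 hybridization control probe sets were higher on both arrays numbered 1 than on both numbered 2, and 22 of 24 poly-A control probe sets were lower. In overall signal the arrays thus did not group by condition. Whether a label is wrong was not tested, and every direction given below rests on the labels as deposited, so the values without single arrays stand beside the results that turn on them. Over the 12 probe sets, the median absolute log2 difference was 0.81 between normal 1 and normal 2, and 0.09 between cold 2 and normal 1. The number of arrays limits the precision of every value, and p-values measure only the spread between these arrays. The study describes RNA sets from separate acclimation experiments, more of them than the 2 arrays per condition that the series holds. All arrays of the series were used here, and no source ties the array numbers to those experiments.

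Cold and normal brains did not differ detectably at any of the 12 probe sets. At the threshold of 0.05 on limma's adjusted p, in an unpaired fit, calls were made at 0 of the 12, at 0 of 9301 kept probe sets (0%) and at 0 of all 15502 (0%). At an unadjusted p under 0.05 there were also 0 of the 12, against 0.495% of the kept and 0.993% of all probe sets. Both shares lay below the share of 0.05 that a well-calibrated test would give with no change at all. The 0 of the 12 is therefore not read as a result about these genes. The log2 fold changes ranged between -0.42 (exorh) and 0.66 (the dimmer probe set of gnat2), with standard errors between 0.20 and 0.55, and limma's adjusted p was 1.0 at each. At all 12 probe sets, the larger of the gaps between the cold arrays and between the normal arrays exceeded the difference between the conditions. The smaller gap could lie under that difference, as at exorh, whose cold arrays differed by 1.02-fold. The share of all probe sets with such a larger gap was not computed. A gap between single arrays was set here against a difference of means, so the count is not read as a result about these genes. The median log2 fold change of the 12 was -0.05, against 0.02 over all probe sets.

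**Figure D3:**
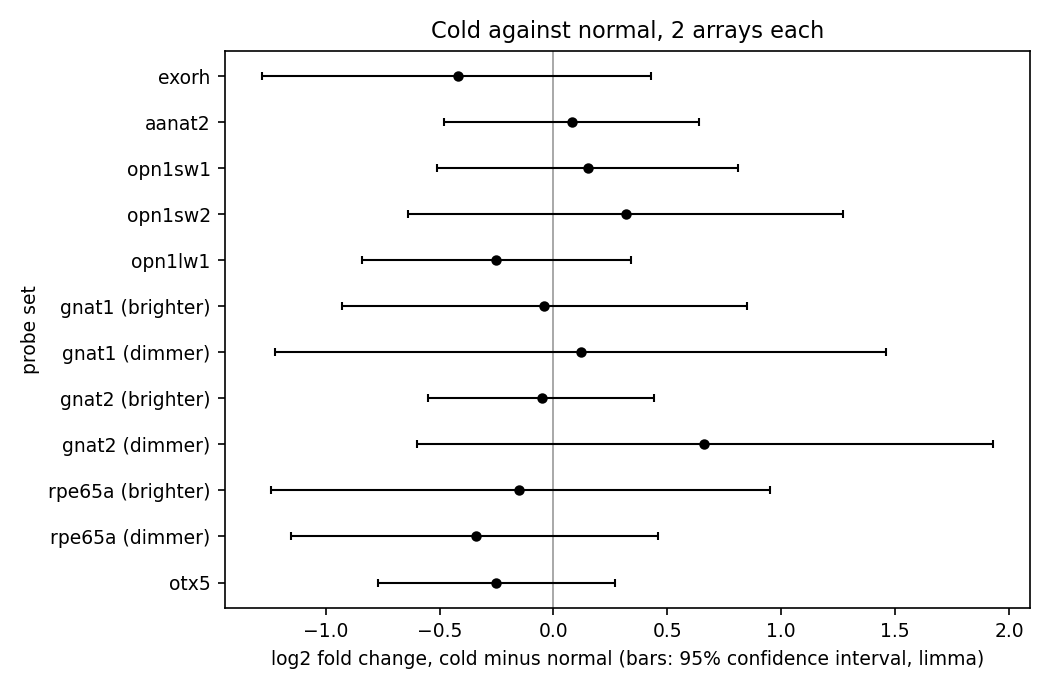
Log2 fold change of cold against normal for the 12 probe sets, with bars for limma's 95% confidence interval (2 arrays per condition). Every interval includes 0, and the widest, of the dimmer probe set of gnat1, runs from -1.22 to 1.46.

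Among the pineal genes, exorh encodes the pineal opsin. Its probe set had signals of 88.9 on cold 1 and 90.2 on cold 2, against 88.8 on normal 1 and 162 on normal 2. A single array, normal 2, was high, and the other 3 were close to each other. The log2 fold change was -0.42 (standard error 0.36, 95% interval -1.28 to 0.43), and without normal 2 it was 0.01. In the current gene table rho lies near exorh on the same chromosome, and whether this probe set also binds transcripts of rho was not tested.

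The melatonin enzyme gene aanat2 had signals of 59.9 on cold 1 and 65.7 on cold 2, against 66.9 on normal 1 and 52.6 on normal 2. The groups overlapped and normal 2 was the lowest array, the reverse of exorh. The log2 fold change was 0.08 (standard error 0.23, 95% interval -0.48 to 0.64), and -0.09 without normal 2. The homeobox gene otx5, whose product drives genes of the pineal organ and photoreceptors, was dim on all arrays, at 23.8 and 30.2 in cold brains, against 30.3 and 33.6 in normal brains. It was the 1 probe set of the 12 with both cold arrays below both normal arrays, an order found at 9.59% of all probe sets, and 0 of the 12 had both cold arrays above both normal arrays (10.3% of all). Its log2 fold change was -0.25 (standard error 0.21, 95% interval -0.77 to 0.27).

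The cone opsins set the color to which a cone responds. The opsin gene of blue cones, opn1sw2, had the highest signals of the 12, at 244 on cold 1 and 216 on cold 2, against 142 on normal 1 and 239 on normal 2. Here normal 1 was the low array, and normal 2 lay between the cold arrays. The log2 fold change was 0.32 (standard error 0.40, 95% interval -0.64 to 1.27), and -0.06 without normal 1. The opsin gene of ultraviolet cones, opn1sw1, had 65.7 on cold 1 and 44.7 on cold 2, against 43.3 on normal 1 and 55.3 on normal 2. Its groups overlapped as well, with a log2 fold change of 0.15 (standard error 0.27), which was -0.13 without cold 1 and -0.03 without normal 1. The opsin gene of red cones, opn1lw1, had 29.2 and 37.0 in cold brains, against 33.9 and 45.1 in normal brains, with a log2 fold change of -0.25 (standard error 0.24). In the current gene table opn1sw2, opn1lw1 and its copy opn1lw2 are direct neighbors. On cold 1, opn1sw2 was highest, at 244 against 239 on normal 2, and opn1lw1 was lowest. The signals of opn1lw1 were at or under the highest unspiked control on all arrays, so these orders are not read as a difference between neighbors.

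Profiles like that of opn1sw2 were sought among 6952 other kept probe sets with 1 gene symbol, by the Euclidean distance of log2 values centered on their mean over the 4 arrays. The nearest were cdk2, a kinase of the cell cycle (0.029), the forebrain and eye homeobox gene six3a (0.055), pcmtd1 (0.071), the homeobox gene lhx1a (0.071) and ablim1a, an actin-binding protein (0.074). For example, six3a had signals of 508 on cold 1 and 466 on cold 2, against 311 on normal 1 and 511 on normal 2. With 4 arrays, close profiles are common, and no test was made.

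Transducin passes the signal on from the opsin. The alpha subunit of rods, gnat1, was measured by a brighter and a dimmer probe set. The brighter one had 80.0 on cold 1 and 55.7 on cold 2, against 50.03 on normal 1 and 94.2 on normal 2. The dimmer one had 40.1 on cold 1 and 19.5 on cold 2, against 15.4 on normal 1 and 42.8 on normal 2. Its signals on cold 2 and normal 1 lay under all 23 unspiked controls. Both probe sets were high on cold 1 and normal 2 and low on cold 2 and normal 1, so each condition held a high and a low array. The log2 fold change was -0.04 (standard error 0.37) for the brighter and 0.12 (standard error 0.55) for the dimmer. The first was 0.22 without cold 2 and 0.42 without normal 2, and the second was -0.40 without cold 1 and -0.61 without normal 1.

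The alpha subunit of cones, gnat2, was flat at its brighter probe set, with 56.9 on cold 1 and 60.2 on cold 2, against 61.5 on normal 1 and 59.9 on normal 2. The log2 fold change there was -0.05 (standard error 0.20, 95% interval -0.55 to 0.44). The dimmer probe set had 18.8 and 10.3 in cold brains, against 5.42 and 14.2 in normal brains. These are the lowest signals of the 12 probe sets, and on cold 2, normal 1 and normal 2 they lay under all 23 unspiked controls. The probe sets of gnat2 therefore disagreed in their spread, and the larger log2 fold change of the dimmer, 0.66 (standard error 0.52), was -0.03 without normal 1.

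In the visual cycle, rpe65a encodes the isomerohydrolase of the retinal pigment epithelium that regenerates the light-catching part of opsins. The brighter probe set had signals of 85.1 on cold 1 and 97.6 on cold 2, against 62.9 on normal 1 and 162 on normal 2. The dimmer one had 60.8 on cold 1 and 55.1 on cold 2, against 53.9 on normal 1 and 99.7 on normal 2. Both were highest on normal 2 and lowest on normal 1. The log2 fold changes were -0.15 (standard error 0.46) and -0.34 (standard error 0.33), and without normal 2 they were 0.53 and 0.10.

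Within the numbered pairs, ratios of cold to normal mostly pointed opposite ways, at these genes and over all probe sets alike. A pair holds 1 array per condition, so these ratios have no replicate check. Of the 12 probe sets, 8 (66.7%) were higher on cold 1 than on normal 1 and lower on cold 2 than on normal 2, against 32% of all probe sets. The reverse held at 2 of the 12, aanat2 and the brighter probe set of gnat2, against 32.4% of all probe sets. Both probe sets of gnat1 and of rpe65a were among the 8, and gnat2 was in both counts. Probe sets of 1 gene share their transcript, so they are not independent counts. The probe set of exorh was among the 8 with a log2 ratio of 0.00 in pair 1. With arrays scaled by quantiles or to a common median, that ratio was -0.06, so exorh was no longer among them. In pair 1, the ratio was 2-fold or more in favor of cold 1 at 2 probe sets, the dimmer ones of gnat1 and gnat2 (6.79% of all probe sets), and in favor of normal 1 at 0 (4.03%). In pair 2, it was 2-fold or more in favor of normal 2 at 1 probe set, the dimmer one of gnat1 (3.21%), and in favor of cold 2 at 0 (1.73%). The median log2 ratio of the 12 was 0.30 in pair 1 and -0.39 in pair 2, against 0.00 and 0.01 over all probe sets.

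**Figure D4:**
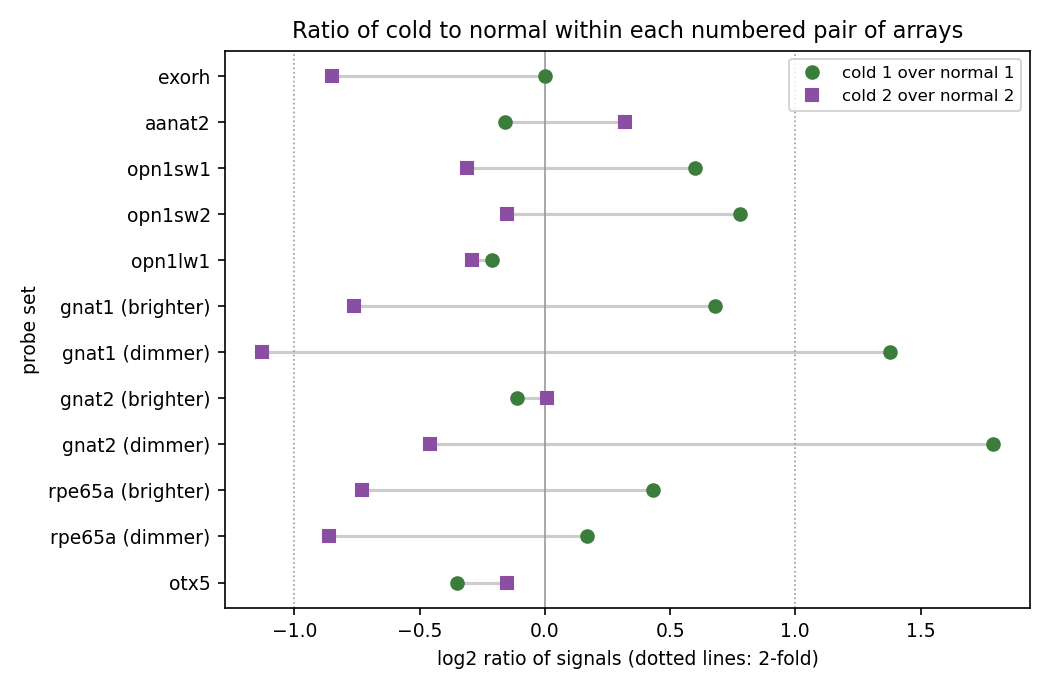
Log2 ratio of cold 1 over normal 1 (circles) and of cold 2 over normal 2 (squares) for the 12 probe sets, with dotted lines at a 2-fold ratio. The dimmer probe set of gnat1 lies at 1.38 in pair 1 and at -1.13 in pair 2, and the squares of 10 of the 12 lie left of 0.

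The array normal 2 was the highest of the 4 at 7 of the 12 probe sets (58.3%), against 22.8% of all probe sets. These were exorh, opn1lw1, otx5 and both probe sets of gnat1 and of rpe65a. At 10 of the 12, cold 2 was lower than normal 2, against 49.2% of all probe sets. At 3 of the 12, normal 2 was at least 1.5-fold above each other array, against 0.858% of all probe sets: exorh (1.80-fold) and both probe sets of rpe65a (1.66-fold and 1.64-fold). This ordering and its 1.5-fold limit were chosen after the values were seen, and the probe sets of 1 gene share their transcript.

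Red blood cell markers were compared with gnat1, which was high on cold 1 and normal 2. The same order within pairs held for red cell genes. All 6 measured were higher on cold 1 than on normal 1 and lower on cold 2 than on normal 2. That order held at 32% of all probe sets. The summed signal of the 6 was 19763 on cold 1 and 12066 on cold 2, against 13794 on normal 1 and 20949 on normal 2. Most of this sum came from hbaa1, with 15330 on cold 1 and 10831 on cold 2, against 12037 on normal 1 and 15571 on normal 2. Summed neuronal and glial markers were 56341 on cold 1 and 47132 on cold 2, against 42323 on normal 1 and 53552 on normal 2, in the same order of arrays within each condition. Single genes differed. Of the 15 measured, 12 had the order of gnat1 within pairs and 2 the reverse. One of the latter, gfap, had 376 on cold 1 and 666 on cold 2, against 1069 on normal 1 and 357 on normal 2. The genes elavl3 and elavl4 were lower on normal 2 than on normal 1. The part of blood or of tissue makeup in the signals of gnat1 was not tested.

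The rest of the pathway was read from 4 lists written with the members left out, for rod transduction, cone transduction, the pineal organ and the visual cycle. Of 125 genes listed, 56 were on the array and 19 passed the filter, and limma called 0 of these 19 and 0 of the 56. It also called 0 of all 15502 probe sets, so these counts are not read as a result about the lists. Without a test, cold 1 exceeded normal 1 by 2-fold or more at 10 of the 56 (17.9%, against 6.79% of all probe sets) and fell short of it by as much at 0, while cold 2 fell short of normal 2 by 2-fold or more at 7 (12.5%, against 3.21%) and exceeded it by as much at 1. Of the 10, only 2 genes, both of the visual cycle list, passed the filter on low signal. Of the 7, only 2 of the cone list and 1 of the visual cycle list passed it. The share that was higher in pair 1 and lower in pair 2 was 32.1%, near the 32% of all probe sets. Normal 2 was the highest array at 27 of the 56 (48.2%), against 22.8% of all probe sets.

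In the rod list, the transducin beta subunit genes gnb1b and gnb1a, which many cells use, were bright, lay lower on both cold arrays than on both normal arrays, and had log2 fold changes of -0.43 (standard error 0.29) and -0.35 (standard error 0.33). The transducin gamma subunit gene of rods, gngt1, had signals of 126 on cold 1 and 36.9 on cold 2, against 40.8 on normal 1 and 139 on normal 2, and so was high on cold 1 and normal 2, as was gnat1, its partner in rods. Its log2 fold change was -0.14 (standard error 0.75). Genes of rod outer segment proteins were dim, with prph2b at 55.8 and 86.8 in cold brains, against 63.4 and 74.8 in normal brains. The median log2 fold change was -0.39 over the 4 kept genes, which include gnb1a and gnb1b, and -0.05 over all 20.

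In the cone list, pde6ha and pde6hb encode inhibitory subunits of the cone phosphodiesterase. At the brighter of its 2 probe sets, pde6ha had signals of 649 on cold 1 and 408 on cold 2, against 493 on normal 1 and 827 on normal 2. The gene pde6hb had 103 on cold 1 and 84.8 on cold 2, against 59.4 on normal 1 and 211 on normal 2. Both were highest on normal 2, and their log2 fold changes were -0.31 (standard error 0.48) and -0.26 (standard error 0.57). The green cone opsin gene opn1mw1 had 95.7 and 80.4 in cold brains, against 104 and 108 in normal brains, so that both cold arrays lay below both normal arrays, with a log2 fold change of -0.28 (standard error 0.27). Its copy opn1mw2, named after its values were seen, had the opposite order, with 75.3 and 38.9 in cold brains, against 28.3 and 36.4 in normal brains, and a log2 fold change of 0.75 (standard error 0.35). Neither passed the test, and the signals of opn1mw2 lay under the filter. The homeobox gene six6a of the eye and hypothalamus had 99.0 and 111 in cold brains, against 99.2 and 116 in normal brains.

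In the pineal list, tph1a and tph2 encode tryptophan hydroxylases, which make the first step from tryptophan to serotonin and melatonin and act in serotonin neurons of the brain too. The gene tph1a had signals of 130 and 121 in cold brains, against 103 and 133 in normal brains. The gene tph2 had 101 on cold 1 and 45.8 on cold 2, against 33.9 on normal 1 and 141 on normal 2, with a log2 fold change of -0.03 (standard error 0.71), again high on cold 1 and normal 2. The aanat2 relative aanat1, which acts in the retina, had 82.4 and 63.9 in cold brains, against 66.5 and 75.9 in normal brains. The opsin gene valopa, which is expressed in deep brain cells, had 55.9 and 57.1 in cold brains, against 51.9 and 51.1 in normal brains.

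In the visual cycle list, rbp4l encodes a retinol-binding protein known in the fish retina as purpurin. It had signals of 167 on cold 1 and 108 on cold 2, against 116 on normal 1 and 774 on normal 2. The signal on normal 2 was 4.63-fold that of the next array, and cold 1 was the next highest. Its log2 fold change of -1.16 had a standard error of 0.84 and an adjusted p of 1.0 in limma. The plasma retinol carrier gene rbp4 had 2891 on cold 1 and 5160 on cold 2, against 2074 on normal 1 and 1796 on normal 2, both cold arrays above both normal arrays, and its log2 fold change of 1.0 had a standard error of 0.35 and a limma adjusted p of 1.0. Over the 4 lists, 5 of the 56 genes had a signal on normal 2 at least 1.5-fold above each other array, against 0.858% of all probe sets. They were rbp4l, pde6hb, the rod list genes unc119b and rcvrn3, a recoverin, and the cone transducin gamma subunit gene gngt2a.

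**Figure D5:**
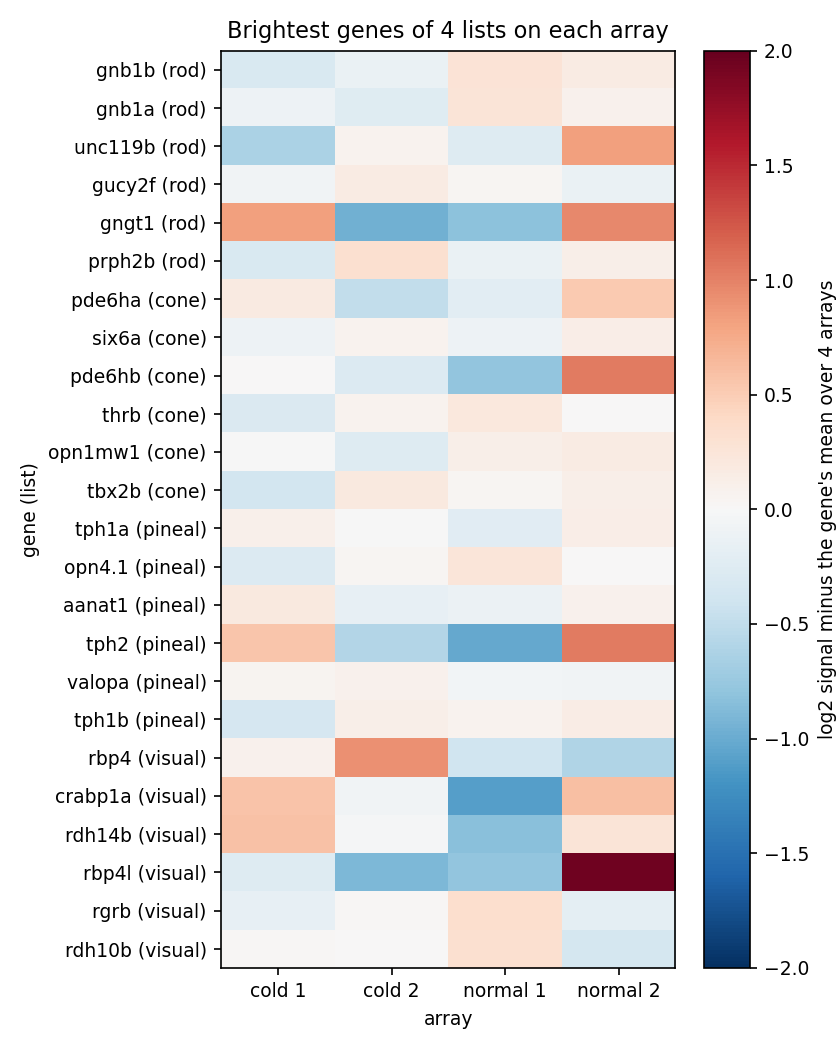
Log2 signal minus the gene's own mean over the 4 arrays, for the 6 brightest measured genes of each of the rod, cone, pineal and visual cycle lists. The deepest red field is rbp4l on normal 2 (signal 774), and gngt1 and tph2 are red on cold 1 and normal 2.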

How the data were processed

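Per the labels and the study's methods, RNA of pooled brains was hybridized to 1-colour Affymetrix arrays, scanned, and analysed with Affymetrix software (the submitters' processing notes name MAS5). The authors deposited 1 linear intensity per probe set. The sources used here do not give the scaling target. Intensities were taken to log2, and of 15617 probe sets the controls were dropped, leaving 15502. Of these, 10795 had 1 gene symbol in the platform annotation, 135 several and 4572 none. Cold was compared with normal by limma 3.58.1 (R 4.3.3), an unpaired linear model with trended moderation of the variance, across the 9301 probe sets at or above the 40th percentile of mean log2 intensity, and p-values were adjusted by Benjamini-Hochberg (threshold 0.05). Members under the filter were read from a fit of all probe sets. The study used SAM, which relabels samples and was not run here, and reported genes changed in both directions at its own threshold. The script was tested on simulated data. Members and lists were chosen with earlier results of these data known. The text names every member, up to 6 of the brightest genes per list, and the 5 nearest profiles of the brightest member. Outside this rule, rcvrn3, gngt2a, opn1mw2, gfap, elavl3, elavl4, rbp3 and pde6c were named after their values were seen. Each list gene was taken at its brightest probe set. Gene neighbours come from RefSeq's table of assembly GRCz12tu, used for names and order only. As alternatives, arrays were scaled by quantiles or to a common median, 16 was added before the logarithm, the filter was dropped or moved to the 60th percentile, the trend was dropped, the replicate number was used as a block, and each array was left out in turn.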

Additional observations from a re-analysis of the deposited data

Results flagged for a closer look

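At the dimmer probe set of gnat1, the ratio of cold to normal pointed opposite ways in the numbered pairs, by at least 2-fold each, and the log2 ratios differed by 2.51 between pair 1 and pair 2. The same was seen at 4 of the 56 genes of the rod, cone, pineal and visual cycle lists. These were the rod transducin gamma subunit gene gngt1 (a difference of 3.54), tph2 (3.2), rbp3 of the visual cycle list and pde6c of the cone list. In pair 1, pde6c lay at the 2-fold limit. Low signals limit these ratios: the dimmer probe set of gnat1 on cold 2 and normal 1, and rbp3 on cold 2, lay under all 23 unspiked controls. With 16 added to the signal, the log2 ratios of that gnat1 probe set were 0.84 in pair 1 and -0.73 in pair 2. Such opposite ratios were also seen for 4 red blood cell genes. Their differences were 3.52 for hbba2, 3.13 for alas2, 5.37 for slc4a1a and 2.75 for epb41b. A pair holds 1 array per condition, so none of these differences was tested. The share of all probe sets with such opposite ratios was not computed.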

How the results depend on the processing

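No member passed the threshold under any alternative, and 0 probe sets were called under each planned one (46 at an unadjusted p under 0.05 in the unpaired limma fit). Other scalings of the arrays, 16 added before the logarithm, no trend, no filter, the filter at the 60th percentile and the blocks gave 76 values of members' log2 fold changes, all with the direction of the main value. With 2 arrays per condition, the trend, the filter and the blocks change only the standard error. Only the other scalings and the added 16 could therefore have moved a direction. Leaving out 1 array gave both signs at 9 of the 12 probe sets. The ranges were -0.86 to 0.01 for exorh, -0.09 to 0.25 for aanat2, -0.13 to 0.43 for opn1sw1, -0.06 to 0.69 for opn1sw2, -0.50 to 0.42 and -0.61 to 0.86 for the brighter and dimmer probe sets of gnat1, -0.03 to 1.36 for the dimmer one of gnat2, and -0.83 to 0.53 and -0.79 to 0.10 for the brighter and dimmer ones of rpe65a. A lone array was then assumed to vary like the other condition. With 16 added to the signal, 0 members were at least 2-fold higher on cold 1 and 0 at least 2-fold lower on cold 2, against 2 and 1. Without the filter the median log2 fold change was -0.05 for the rod list and -0.09 for the cone list, against -0.39 and -0.24, with 20 and 16 genes in place of 4 and 6.

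The replicate block called 0 probe sets. The main fit was unpaired because the study's comparison was unpaired. Same-numbered arrays tended weakly to deviate from their group means in opposite directions (r = -0.295 over 9301 probe sets). The control RNAs added during preparation, however, followed the numbers. With the numbers crossed as a block, chosen after seeing the data, 1 probe set was called. Of the members, 9 probe sets lay under the filter on low signal.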
